A study of Sus scrofa with 15 samples.

Results

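Macrophage markers were followed in Longissimus muscle of 15 pigs. The list held 7 genes (AIF1, C1QA, CD163, CD14, CD68, FCGR1A and CHI3L1), and a non-control array feature was taken as a marker's probe when its gene name or description was one of them. This gave 14 probes for 6 of the 7 genes, 12 of them matched by gene name and 2, both of CD163, by description only; CD68 is not analysed here. The markers were chosen from earlier results of these arrays, in which the levels of all 15 pigs were known. Differences between the pig-number sets defined below are therefore given as descriptions, with no test. The 6 markers stand among 4083 genes tested in all.

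The pigs came from a line with low residual feed intake (low_RFI, labelled RFIneg, n = 7) or with high residual feed intake (high_RFI, labelled RFIpl, n = 8). Residual feed intake is feed use above that predicted from an animal's growth and upkeep. All pigs were fed ad libitum and weighed 20 kg, and total RNA of each was put on an array of its own. The labels used here give neither sex nor age, and no treatment separated the groups other than the line. The numbers in the array names fall into 2 sets, 1 to 8 (n = 8, 4 pigs of each line) and 55 to 62 (n = 7, 3 low_RFI and 4 high_RFI pigs); what the numbers stand for is not stated. Each of 4 slides carried both lines and both number sets.

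Macrophages live between the fibres of resting muscle, where they clear debris and dying cells, and monocytes from blood add to them after injury or infection. AIF1 is a calcium- and actin-binding protein of macrophages, and C1QA is a chain of C1q, which starts the classical complement pathway. CD163 takes up haemoglobin bound to haptoglobin, CD14 is the co-receptor through which TLR4 senses bacterial lipopolysaccharide, FCGR1A is the high-affinity receptor for IgG, and CHI3L1 is a secreted chitinase-like protein without enzyme activity. CHI3L1 is also made by other cells, such as neutrophils and chondrocytes. RNA of whole muscle was measured, so fewer macrophages and less of a transcript per macrophage cannot be told apart.

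The sequences below are the 60-base probes behind several of the values that follow, as the array files give them. The 2 CD14 probes are shown together because their values differed. For AIF1, CD163 and CHI3L1 the printed probe is not the one that stands for its gene below, and the C1QA probe is not printed. None of the 14 probes shared a run of 20 bases with another probe of the array. No part is capitalised, since no stretch of a probe was singled out. Probes are numbered within a gene by their start in the files.

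AIF1 probe 1: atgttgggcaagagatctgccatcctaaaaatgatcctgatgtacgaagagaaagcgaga
CD163 probe 3: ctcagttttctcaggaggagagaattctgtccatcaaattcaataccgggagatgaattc
CD14 probe 1: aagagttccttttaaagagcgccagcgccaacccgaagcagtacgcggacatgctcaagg
CD14 probe 2: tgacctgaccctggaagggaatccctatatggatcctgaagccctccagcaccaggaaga
FCGR1A probe 1: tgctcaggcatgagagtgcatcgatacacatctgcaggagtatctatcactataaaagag
CHI3L1 probe 1: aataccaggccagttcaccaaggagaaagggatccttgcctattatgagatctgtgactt

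From 61.7% to 79.4% of the non-control spots of an array were well above background by the scanner software's flag, and no spot was saturated. The highest share belonged to high_RFI replicate 5, and the shares ran from 61.7% to 75.9% in pigs 1 to 8 and from 68.1% to 79.4% in pigs 55 to 62. Skeletal muscle fibre genes, the check on the tissue, were found with 13 of 14 tested, and their mean level lay between 8.72 and 9.09 in every pig. Levels throughout are log2 processed signals relative to the 75th percentile of the same array over its non-control probes; levels of different probes are not set against each other.

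All 14 marker probes entered the test, for which a probe had to be well above background on at least 7 of 15 arrays. AIF1 (both probes), C1QA, CD14 probe 2 and CD163 probes 1, 3, 4 and 5 were well above background on 15 of 15 arrays. CD163 probes 2 and 6 were so on 14 and 13 arrays, and CD14 probe 1 on 12. CHI3L1 probes 1 and 2 were dimmer, at 7 and 11 arrays. FCGR1A was well above background on 7 of 15 arrays, on 0 of 8 among pigs 1 to 8 and on 7 of 7 among pigs 55 to 62, so it entered the test only through the second set. The probe of highest mean level stands for its gene below (probe 2 of AIF1, CD14 and CHI3L1, and probe 4 of CD163).

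The first comparison asked whether the markers differed between the feed-efficiency lines. None of the 6 passed in limma with Benjamini-Hochberg adjustment over all genes (0 of 6 at an adjusted p under 0.05), where 0.0245% of the 4083 tested genes did. At an unadjusted p under 0.05, 7.05% of genes and 0 of 6 markers passed. No marker had lines that did not overlap, as 0.149% of genes had. Differences are low_RFI minus high_RFI on the log2 scale; their median over the 6 markers was -0.11, against 0.014 over all genes.

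For AIF1 the lowest, median and highest levels were 0.67, 1.39 and 2.38 in low_RFI pigs and 0.53, 1.27 and 3.60 in high_RFI pigs. The lines overlapped over nearly their whole range, and the top value was high_RFI replicate 5. The difference was -0.14 ± 0.39 (SE, n = 7 and 8; 95% interval -0.97 to 0.70; limma adjusted p = 0.996), with the low_RFI pig higher in 28 of the 56 pairs of a low_RFI and a high_RFI pig. C1QA ran from -0.13 through a median of 0.71 to 2.13 in low_RFI pigs and from 0.22 through 0.79 to 2.48 in high_RFI pigs. Its difference was -0.17 ± 0.37 (SE; interval -0.96 to 0.61; limma adjusted p = 0.994), with the low_RFI pig higher in 24 of 56 pairs. Both lines held pigs near the bottom and near the top of the C1QA range.

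CD163, the haemoglobin scavenger receptor, ran from 0.38 through 1.02 to 1.70 in low_RFI pigs and from 0.20 through 1.05 to 2.52 in high_RFI pigs. It gave -0.085 ± 0.28 (SE; interval -0.68 to 0.51; limma adjusted p = 0.997). All 4 CD163 probes matched by gene name overlapped between the lines, and their differences ran from -0.36 to 0.048. For CD14 the levels were -0.98, -0.59 and -0.01 in low_RFI pigs and -0.60, -0.24 and 0.48 in high_RFI pigs, as lowest, median and highest. High_RFI pigs stood higher in most pairs but not beyond the spread, with a difference of -0.28 ± 0.18 (SE; interval -0.65 to 0.10; limma adjusted p = 0.827) and low_RFI higher in 16 of 56 pairs. The dimmer CD14 probe 1 gave -0.48 ± 0.29 (SE; limma adjusted p over probes = 0.843).

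FCGR1A gave 0.034 ± 0.83 (SE, interval -1.73 to 1.79, limma adjusted p = 0.999), the widest interval of the 6. It was well above background in 3 of 7 low_RFI and 4 of 8 high_RFI pigs, all of them numbered 55 to 62. This fit also took in the values of pigs 1 to 8, which were not measured levels, so it cannot size a line difference of FCGR1A. CHI3L1 ran from -4.85 through -3.96 to -2.48 in low_RFI pigs and from -5.32 through -4.29 to -3.31 in high_RFI pigs. Its difference was 0.33 ± 0.40 (SE; interval -0.52 to 1.18; limma adjusted p = 0.953), with the low_RFI pig higher in 35 of 56 pairs. These intervals are wide, and a p that misses the threshold does not show equal levels.

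The direction of 3 of these differences turned without high_RFI replicate 5. Without it AIF1 gave 0.16, C1QA 0.036 and CD163 0.12, in place of negative values, while CD14 stayed negative at -0.18; CD163 also turned to 0.025 without low_RFI replicate 4. Within slides 1 to 4 the line difference was -0.11, -0.67, 0.24 and 0.013 for AIF1 and -0.14, -0.20, 0.056 and -0.25 for C1QA. CD14 was lower in low_RFI pigs within all 4 slides, by -0.063, -0.33, -0.29 and -0.18, and slide as a fixed block gave -0.21 (limma adjusted p = 0.669). Within pigs 1 to 8 and pigs 55 to 62 the line difference was 0.046 and -0.19 for AIF1, -0.12 and -0.082 for C1QA, 0.083 and -0.21 for CD163, and -0.21 and -0.34 for CD14. For CHI3L1 it was 0.42 and 0.44, and for FCGR1A it was 0.15 in pigs 55 to 62, with no value among pigs 1 to 8, none of which was well above background. None of the other 5 passed a test of whether the line difference itself differed between the number sets (limma interaction term, adjusted p from 0.982 to 1).

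**Figure D1:**
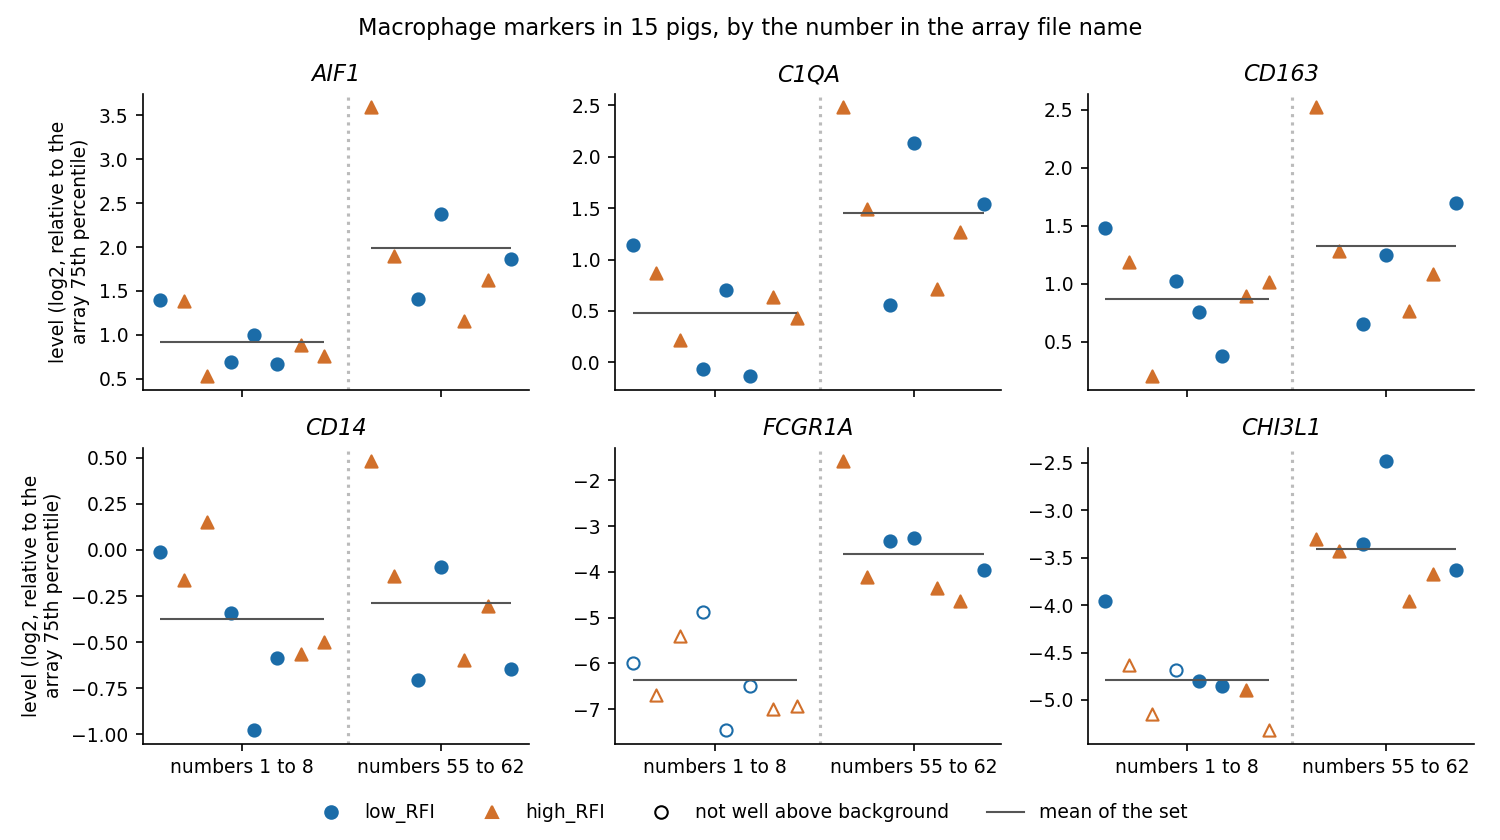
Level of each marker in each of the 15 pigs (log2, relative to the array's 75th percentile), with pigs in the order of their numbers and the 2 number sets apart. Circles are low_RFI and triangles high_RFI pigs, open symbols were not well above background, and lines are set means; FCGR1A has 8 open symbols on the left and 7 filled ones on the right, with no overlap, while low_RFI and high_RFI symbols are mixed in every panel.

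The larger contrast among the pigs lay between the number sets. All 6 markers had a higher mean in pigs 55 to 62 than in pigs 1 to 8, as 42.0% of genes had, and 3 of 6 were higher by at least 1 on the log2 scale, as 2.67% of genes were. With normexp background correction 1 of 6 (AIF1) was higher by that much, and without high_RFI replicate 5 it was 2 of 6 (FCGR1A and CHI3L1). The markers' median difference (55 to 62 minus 1 to 8) was 1.03, against -0.042 over all genes, whose central 95% ran from -0.48 to 1.05. The markers' median was 0.81 without high_RFI replicate 5 and 0.44 with normexp. It takes in FCGR1A, which had no measured level in pigs 1 to 8. The members were chosen with these values known, so the counts describe the list and support nothing. With each marker taken as its deviation from its own mean over all pigs, and FCGR1A left out because pigs 1 to 8 gave it no measured level, the mean of 5 markers was -0.37 ± 0.30 (SD, n = 8) in pigs 1 to 8 and 0.42 ± 0.54 (SD, n = 7) in pigs 55 to 62. By line it was -0.037 ± 0.55 (SD, n = 7) for low_RFI and 0.032 ± 0.64 (SD, n = 8) for high_RFI. This mean still holds CHI3L1, which was well above background in only 4 of 8 pigs of set 1 to 8. The set difference of CHI3L1 was 1.38, and 0.20 with normexp.

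FCGR1A, the IgG receptor, was the marker that separated the sets. Its processed signal was 2.01, 3.69 and 13.3 (lowest, median and highest) in pigs 1 to 8, none well above background, and 13.7, 24.1 and 148 in pigs 55 to 62, all well above background. The sets did not overlap: the pig of set 55 to 62 was higher in 56 of 56 pairs, in both lines, and 1.02% of genes had sets that do not overlap in either direction. The measured means were -6.36 ± 0.87 (SD, n = 8) and -3.60 ± 1.03 (SD, n = 7). Since the first set was nowhere well above background, the size of the difference was not measured. For scale, levels of pigs 1 to 8 were raised to the lowest that counted as well above background on each array. Their mean was then -4.93, and FCGR1A was 2.51-fold higher in pigs 55 to 62. Those lowest levels came from other probes and need not be the limit of this probe, so the value is not a minimum. In low_RFI replicate 2, CD163 probe 5 counted as well above background at -3.79, while CD163 probe 2 did not at -3.62. Without high_RFI replicate 5 the mean of pigs 55 to 62 was -3.94, so the fold is smaller without that pig. Where sets do not overlap, they cannot overlap within a line or within any of the 4 slides either. The same order there is thus no further support. With normexp background correction, which adds an offset of 50 to every signal, the difference of the means was 0.41.

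CHI3L1 ranked place 39. Its probe 2 had levels of -5.32, -4.83 and -3.96 (lowest, median and highest) in pigs 1 to 8 and -3.96, -3.43 and -2.48 in pigs 55 to 62. The sets touched at a single pair, low_RFI replicate 1 standing level with high_RFI replicate 7, and set 55 to 62 was higher in 55 of 56 pairs. The difference was 1.38 (2.61-fold), with 4 of 8 and 7 of 7 pigs well above background, and it was 1.36 without high_RFI replicate 5. Probe 1 of CHI3L1, well above background on 2 of 8 and 5 of 7 arrays, gave 0.49 with 45 of 56 pairs, and the 2 probes correlated at 0.44 over 15 pigs. With normexp the difference of probe 2 was 0.20, so its size rests on how dim signals are treated.

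AIF1 had levels of 0.53, 0.82 and 1.39 in pigs 1 to 8 and 1.15, 1.86 and 3.60 in pigs 55 to 62 (lowest, median and highest). The sets overlapped only narrowly, with set 55 to 62 higher in 54 of 56 pairs, by 1.07 (2.11-fold). Its probe 1 gave 1.05, with 52 of 56 pairs, and the 2 AIF1 probes correlated at 0.997. C1QA had -0.13, 0.53 and 1.15 in pigs 1 to 8 and 0.56, 1.49 and 2.48 in pigs 55 to 62, a difference of 0.98 (1.97-fold) with 50 of 56 pairs. The SD was 0.81 in pigs 55 to 62 against 0.33 in pigs 1 to 8 for AIF1 and 0.70 against 0.45 for C1QA; without high_RFI replicate 5 the SD in pigs 55 to 62 was 0.43 and 0.58. Without high_RFI replicate 5 both differences were 0.81. Within slides 1 to 4 the difference was 1.10, 2.64, 0.40 and 0.96 for AIF1 and 1.41, 1.80, 0.067 and 1.15 for C1QA, smallest on slide 3 for both.

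CD163 differed less. Its levels were 0.20, 0.96 and 1.48 in pigs 1 to 8 and 0.65, 1.249 and 2.52 in pigs 55 to 62, and the sets overlapped, with set 55 to 62 higher in 41 of 56 pairs. The difference of 0.45 was 0.25 without high_RFI replicate 5, and it was negative on slide 3 (-0.18). All 6 CD163 probes had a higher mean in pigs 55 to 62, by 0.28 to 0.55. The CD163 probes matched by gene name correlated with each other at 0.72 to 0.97, whereas those matched by description correlated with the representative probe at 0.65 and 0.50.

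CD14 showed almost no difference between the sets. Probe 2 had levels of -0.98, -0.42 and 0.15 in pigs 1 to 8 and -0.71, -0.31 and 0.48 in pigs 55 to 62, a difference of 0.088 with 28 of 56 pairs, and -0.041 without high_RFI replicate 5. Within slides 1 to 4 the difference of probe 2 was 0.14, 0.41, 0.086 and 0.099. Probe 1, which was well above background on 5 of 8 and 7 of 7 arrays, gave 0.59 with 46 of 56 pairs. The 2 CD14 probes correlated at 0.68, and at 0.45 without high_RFI replicate 5, so the answer for CD14 depends on the probe.

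**Figure D2:**
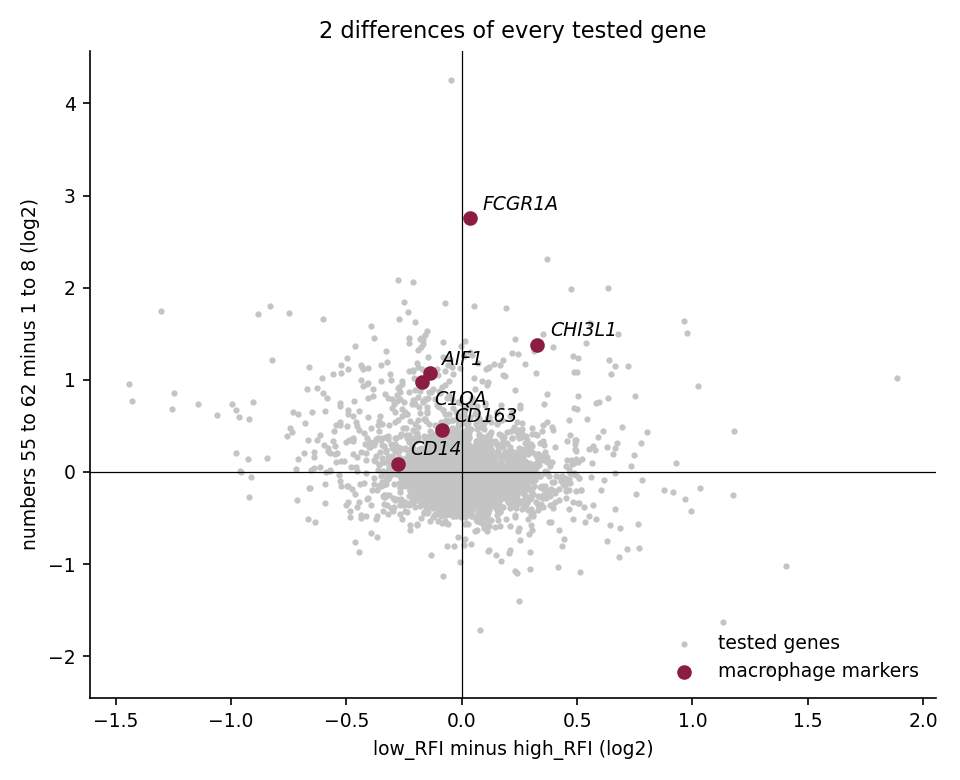
Difference between the lines (horizontal, low_RFI minus high_RFI) against the difference between the number sets (vertical, 55 to 62 minus 1 to 8), both in log2, for each of the 4083 tested genes in grey and the 6 markers in red. The markers lie within 0.33 of 0 on the horizontal axis, while on the vertical axis they run from 0.088 for CD14 to a measured 2.75 for FCGR1A, which is dim in pigs 1 to 8.

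CD14 probe 2 followed the slides instead. Its mean was -0.19 and 0.21 on slides 1 and 2 and -0.70 and -0.53 on slides 3 and 4, each of which was scanned separately. Pigs on slides 1 and 2 were higher than pigs on slides 3 and 4 in 55 of 56 pairs, with a difference of 0.59, and 1.94% of genes were separated at least as far in 1 direction or the other. This split of the slides was chosen after the values were seen. Among the other markers the count of pairs ran from 35 for AIF1 to 42 for CD163. Every slide held both lines and both number sets; the cause of the pattern was not tested.

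**Figure D3:**
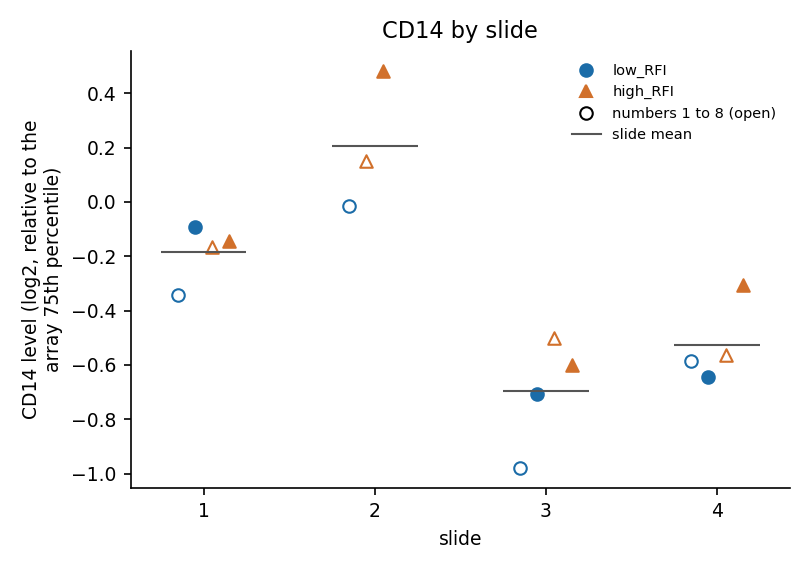
CD14 probe 2 level in each pig (log2, relative to the array's 75th percentile) by slide, with slide means as lines; circles are low_RFI, triangles high_RFI, and open symbols are pigs numbered 1 to 8. Slide means are -0.19, 0.21, -0.70 and -0.53. On slides 1 and 2 every filled symbol lies above every open one, and on slides 3 and 4 they are mixed.

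A single pig stood above the others in most markers. High_RFI replicate 5 had the highest level of all 15 pigs for AIF1, C1QA, CD163, CD14 and FCGR1A (5 of 6 markers, where 9.55% of genes were highest in that pig) and was among the top 3 for CHI3L1. Its mean deviation over the 5 markers without FCGR1A was 1.37, followed by low_RFI replicate 6 at 0.85, which had the highest CHI3L1 level. The lowest pig was low_RFI replicate 4 at -0.70, below the mean for all of them. Low_RFI replicate 1, at 0.22, was the highest of pigs 1 to 8, and high_RFI replicate 7, at -0.17, the lowest of pigs 55 to 62, so the sets overlapped in this mean. High_RFI replicate 5 also had the largest share of spots well above background; the part of that in its marker levels was not tested.

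Pairs of markers were correlated over the pigs. FCGR1A was left out of the pooled values because its sets do not overlap. The markers were chosen with their levels known and the sets differ in their means, so these values are a description of how the markers vary together, with no test. Over 15 pigs the 10 pairs had a median r of 0.67. AIF1 and C1QA were closest, with Pearson's r = 0.94 and Spearman's rho = 0.93, and r = 0.92 without the 2 pigs farthest from the median of AIF1. The pair kept r = 0.88 within pigs 1 to 8 and 0.92 within pigs 55 to 62. AIF1 and CHI3L1 had r = 0.79 and rho = 0.92, with r = 0.74 and 0.48 within the sets. The pairs of CHI3L1 rest on how dim signals are treated: with normexp its r was 0.037 with AIF1 and 0.089 with C1QA, against 0.79 for both.

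CD163 went with AIF1 (r = 0.85, rho = 0.77) and with C1QA (r = 0.82, rho = 0.83). Without the 2 farthest pigs those r were 0.73 and 0.76, and within pigs 1 to 8 they were 0.79 and 0.68. For CD14 r ran from 0.28 with CHI3L1 to 0.54 with AIF1, and the latter was 0.18 without high_RFI replicate 5. Within pigs 1 to 8 CD14 and AIF1 gave r = 0.11, and within pigs 55 to 62 they gave 0.91, where both were highest in high_RFI replicate 5. FCGR1A correlated with AIF1 at r = 0.87 and rho = 0.68 within pigs 55 to 62, and r was 0.29 without the 2 farthest pigs.

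**Figure D4:**
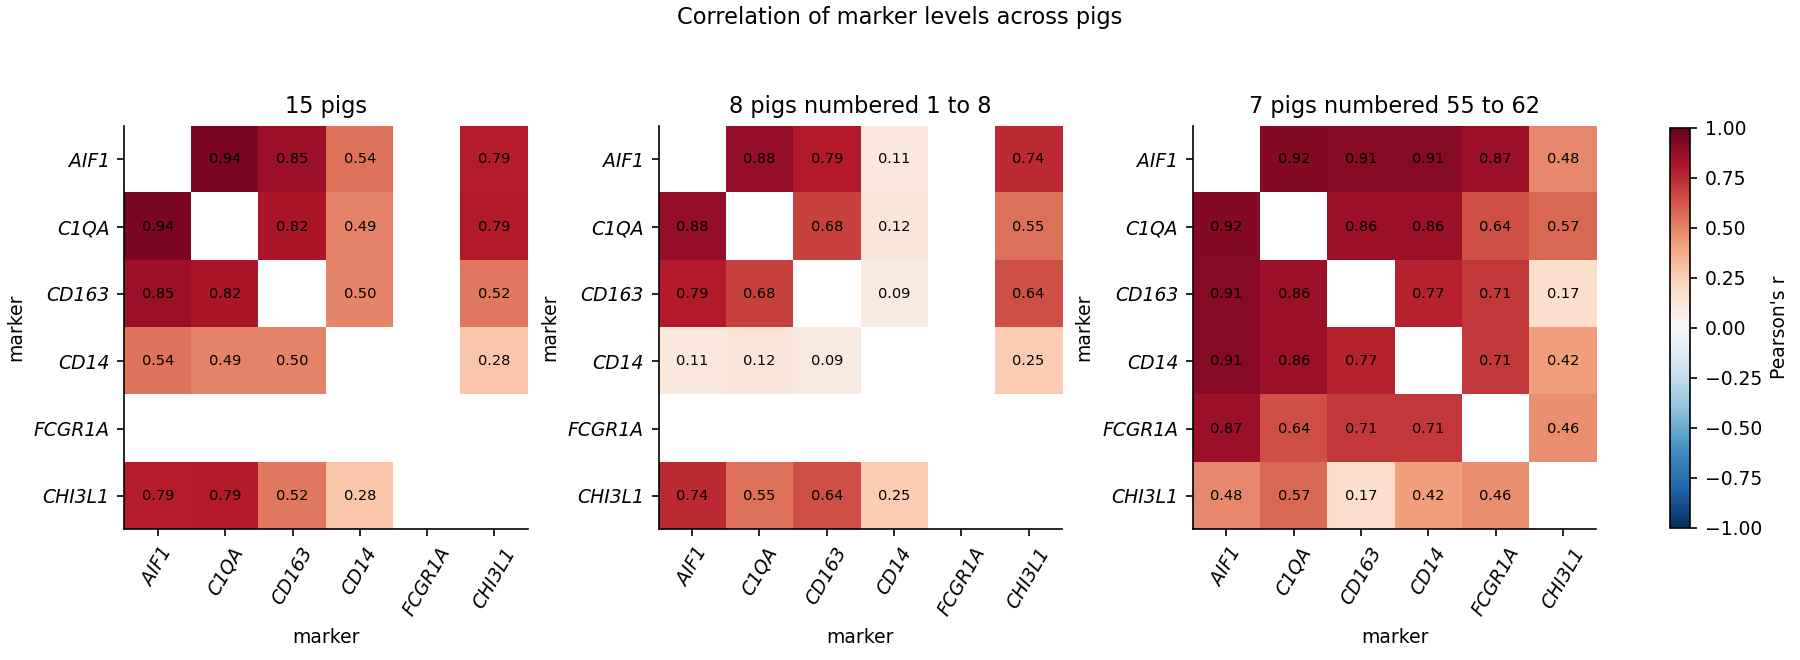
Pearson's r between marker levels over all 15 pigs, over the 8 pigs numbered 1 to 8 and over the 7 pigs numbered 55 to 62; blank cells hold no value, and FCGR1A is shown only where it was well above background on every array. AIF1 with C1QA stays at 0.88 or above in each panel, and CD14 pairs run from 0.088 to 0.25 in pigs 1 to 8.

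The genes whose levels over 15 pigs were most like each of 5 markers were taken by Pearson's r among 4024 other genes, as a description without a test. For AIF1 they were the complement protease C2 (0.985), FCER1G, the signalling chain of Fc receptors (0.976), and the IgG receptor FCGR3A (0.973). C1QA was nearest to FCER1G (0.974), to PTPN6, a phosphatase of blood cells (0.971), and to FCGR3A (0.964). These stayed at 0.895 or above within each number set. CD163 was nearest to the amino acid transporter SLC7A7 (0.902), the C5a receptor C5AR1 (0.902) and TLR2 (0.897), which were 0.79, 0.85 and 0.78 without high_RFI replicate 5 and 0.63, 0.88 and 0.64 within pigs 1 to 8. FCGR1A was not ranked in this way, since pigs 1 to 8 gave it no measured level. CHI3L1 was nearest to WDFY3 (0.886), SYTL3 (0.880) and the proteasome activator PSME1 (0.878), which were 0.68, 0.35 and 0.43 within pigs 1 to 8 and 0.77, 0.93 and 0.94 within pigs 55 to 62. CD14 was nearest to APOBEC3B (0.868), OOEP (0.867) and the retinoic acid receptor RARA (0.859), and no other marker was among these 3. They too were higher on slides 1 and 2 than on slides 3 and 4, in 54, 49 and 53 of 56 pairs.

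Other genes of macrophages and their pathways were taken from lists, none of whose genes passed between lines. Of 41 other macrophage and monocyte genes, 24 were on the array and 19 tested; 5 had a higher mean in low_RFI and 14 in high_RFI pigs, where 45.6% of all genes were higher in high_RFI. At an unadjusted p under 0.05 in limma there were 3 of 19, where 7.05% of all genes passed. These 3 were F13A1, a clotting factor of tissue macrophages (-0.62 ± 0.24 SE, limma adjusted p = 0.643), the folate receptor FOLR2 (0.19 ± 0.084 SE, limma adjusted p = 0.698) and the galectin LGALS3 (-0.52 ± 0.24 SE, limma adjusted p = 0.700). Between the number sets 17 of 19 had a higher mean in pigs 55 to 62 (median difference 0.40), and 15 of 19 without high_RFI replicate 5 (0.24). The hyaluronan receptor LYVE1 and the lectin CD209 were the 2 with a lower mean, at -0.49 and -0.24. Both were named after their values were seen.

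In the complement list, with C1q's partners, 7 of 7 tested genes had a higher mean in pigs 55 to 62 (median 0.87), led by C2 at 1.46, and 6 of 7 had a higher mean in high_RFI pigs with 0 called; the genes of smallest p were the C1q-binding chaperone CALR (0.19 ± 0.093 SE, limma adjusted p = 0.744), C3 (-0.43 ± 0.41 SE, 0.936) and C2 (-0.38 ± 0.53 SE, 0.973). In the Fc receptor list 4 of 6 had a higher mean in pigs 55 to 62 (median 1.004). FCGR3A at 1.41, PTPN6 at 1.14 and FCER1G at 1.10 were among them, while the neonatal receptor FCGRT gave -0.21. In the lipopolysaccharide list, to which CD14 belongs, 11 of 14 had a higher mean in pigs 55 to 62 (median 0.19, and 0.12 without high_RFI replicate 5). LY96, the partner of the receptor TLR4, gave 0.49, and 0.29 without that pig. The genes of smallest p between lines in this list were the adaptor TRAF6 (0.69 ± 0.28 SE, limma adjusted p = 0.662), LY96 (-0.50 ± 0.24 SE, 0.704) and TLR1 (-0.24 ± 0.14 SE, 0.794). For haemoglobin uptake and haem breakdown, the pathway of CD163, 2 of 5 had a higher mean in pigs 55 to 62; the transferrin receptor TFRC gave 0.74, hemopexin HPX 0.36 and haptoglobin HP -0.0025. Of 12 tested growth factors and chemoattractants for macrophages 9 had a higher mean in pigs 55 to 62 (median 0.33) and 3 a lower one. Of all genes 42.0% had a higher mean there. The genes of smallest p between lines in this list were CCL2, CCL5 and CCL8, with set differences of 1.02, 1.51 and 1.14. Without high_RFI replicate 5 these were 0.82, 1.35 and 0.62.

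Markers of other cell types moved to different extents between the number sets. T cell markers had a higher mean in pigs 55 to 62 for 6 of 7 (median 1.22), and the mean level over the list lay from -4.19 to -2.65 in pigs 1 to 8 and from -3.41 to -0.89 in pigs 55 to 62. B cell, NK cell and mast cell markers gave 1 of 2, 2 of 3 and 1 of 3. Neutrophil markers gave 2 of 7 (median -0.089, mean level from -2.16 to -1.46 and from -2.03 to -1.86), endothelial markers 2 of 7, adipocyte markers 4 of 8, fibroblast markers 0 of 5, satellite cell markers 1 of 2 and muscle fibre markers 2 of 13. Of erythrocyte markers 1 of 8 was on the array and 0 were tested. The same mean over the 6 macrophage markers ran from -1.84 to -0.99 in pigs 1 to 8 and from -1.05 to 0.70 in pigs 55 to 62. These 2 ranges overlap narrowly. The mean includes FCGR1A, which pigs 1 to 8 gave no measured level, so the distance between the sets in it is not a measured size. Without FCGR1A the mean deviation of 5 markers was -0.37 in pigs 1 to 8 and 0.42 in pigs 55 to 62. T cell markers thus moved with the macrophage markers in the means of the sets, and their part in the result was not tested. Between lines 6 of 7 T cell markers had a higher mean in low_RFI pigs (median 0.51, 0 called), as 2223 of 4083 genes had. High_RFI replicate 5 was highest for 1 of 7 T cell markers, against 5 of 6 macrophage markers and 390 of 4083 genes.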

How the data were processed

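Total RNA of Longissimus muscle from 15 pigs was labelled with Cy3, per the labels, and read on 1-colour arrays. Per the file headers, the signals are intensity values of Feature Extraction 10.7.3.1, background-subtracted and not normalized between arrays; other columns, per the file headers, are spot flags. The deposited table holds the authors' log2 values, which equal log2 signal minus the array median over its 29364 spots; R 2.10.0 is named in the submitters' processing notes.

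Non-uniform and control spots were left out, spots of a probe averaged, and the 75th percentile of each array subtracted from log2 values. Probes needed the well-above-background flag on 7 of 15 arrays and 4 values per line. Names came from accessions and symbols in a RefSeq table: of 43603 probes, 10580 carried a single symbol, 341 a single LOC identifier, and the remaining 32682 no gene or more than 1. The tested probe of highest mean level stood for a gene. Lines were compared with limma 3.58.1 (lmFit and eBayes, two-sided, R 4.3.3), with Benjamini-Hochberg adjustment over 4083 genes; the fit was tested on simulated data. Array number limits the precision. Members and lists were chosen with earlier results of these data known. Named genes are all markers, per list those passing or up to 3 of smallest p, and the 3 most like each marker other than FCGR1A; LYVE1 and CD209 were chosen after their values were seen. Replicate numbers of the lines pair no pigs: deviations of same-numbered pigs correlated at -0.033 to 0.32. Alternatives covered background correction (normexp, offset 50), scaling, deposited values, filters, blocks, weights, probe choice and leaving out each pig.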

Additional observations from a re-analysis of the deposited data

Results flagged for a closer look

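In each line and each number set, the highest and lowest pig of each of the 6 markers was compared with its nearest neighbour. The gap was taken as a share of the range and set against the limit of Dixon's gap test, in 24 groups. These groups share pigs, and the markers were chosen with their levels known. The limit therefore serves only to flag values, with no error rate. The 2 results that stood out were both from high_RFI replicate 5 among high_RFI pigs. AIF1 reached 3.60 in that pig against 1.90 in the next high_RFI pig, a gap of 0.552 of the range of the 8 pigs (limit 0.526). CD163 reached 2.52 against 1.28 in the next pig, a gap of 0.536 of the range (limit 0.526).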

How the results depend on the processing

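No marker passed between the lines under any of 29 alternatives (limma, 0 of 6 or of those testable), with adjusted p from 0.466 to 0.999. Directions that turned were those of CHI3L1 (-0.070) and FCGR1A (-0.20) with normexp background correction, and of FCGR1A with array weights (-0.0041). Leaving out 1 pig at a time gave -0.31 to 0.16 for AIF1, -0.39 to 0.036 for C1QA, -0.22 to 0.12 for CD163 and -0.24 to 0.44 for FCGR1A, which could be tested in 8 of 15 such fits. With normexp the median set difference of the markers was 0.44 and the median r of their pairs 0.37. With the replicate number as a block, a number that pairs no pigs by the labels, the median line difference was -0.10 and 0 markers passed; 1 of 7 pigs matched its own number best. The count of all genes called ranged from 0 to 2. FCGR1A is not in the deposited table, so that alternative gives it no value. Correlations without high_RFI replicate 5, lists without it, slide splits, means without FCGR1A and the interaction were added after seeing the data. Signals near background limit FCGR1A and CHI3L1.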
